A study of Mus musculus with 2 samples.

Results

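The genes examined here encode the proteins of the cytosolic ribosome. How open the chromatin was at these genes was measured by ATAC-seq, a method in which a transposase cuts accessible DNA and tags it for sequencing. A gene was a member if the symbol attached to a peak in the deposited table began with Rpl or Rps followed by a number, or was Rplp0, Rplp1, Rplp2 or Rpsa, with pseudogene symbols and the Rps6k kinases left out. By this rule 69 genes with 84 peaks were members, of 16934 genes with 63316 peaks in the whole table. Of the 69, 39 encode proteins of the large subunit and 24 proteins of the small subunit. The other 6 were Rpl22l1, Rpl36al, Rpl7l1 and Rps27l, which are paralogs, Rpl37rt, a retrotransposed copy, and Rps19bp1, which encodes a binding partner of Rps19 and not a ribosomal protein.

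The libraries were made from primary murine cardiac fibroblasts isolated from the heart, and there was 1 library per condition. The control cells received scrambled siRNA (SCR, labelled NC) and the others received siRNA against Piezo2, a mechanosensitive ion channel (siPiezo2, labelled SiPiezo2). Cells of both conditions were treated with TGF-β, the cytokine that drives fibroblasts towards contractile myofibroblasts, so no library of untreated cells was compared. The labels give neither strain nor age of the mice. An siRNA removes mRNA and leaves the gene in place, so accessibility at Piezo2 itself, summed to 334 in SCR against 242 in siPiezo2, does not check the knockdown. With 1 library on each side no difference between the conditions has a replicate check, and each 95% exact binomial (Clopper-Pearson) interval below covers counting error only.

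The windows around all peaks held 4615335 reads (SCR) and 2754046 reads (siPiezo2), and the densities used here are those the authors normalized for this. Fibroblast marker genes carried peaks in 10 of 12 cases, Lum and Thy1 being the exceptions, and summed to a density of 1656 in SCR against 1395 in siPiezo2. Of 10 cardiomyocyte markers 4 carried a peak (356 in SCR and 308 in siPiezo2), and Myh6, Myh7, Tnni3, Actc1, Nppa and Pln carried none. Of 10 endothelial markers 7 carried a peak (644 and 648), as did 7 of 10 macrophage and leukocyte markers (380 and 358) and 7 of 8 smooth muscle and pericyte markers (810 and 554). In that last list Acta2 (165 and 43.2), Tagln (122 and 61.7) and Rgs5 (127 and 56.0) were lower in siPiezo2, while Cspg4 had 147 and 165 and Smtn and Cnn1 differed by less than 0.05 on the log2 scale. Acta2 and Tagln are also expressed by activated fibroblasts, so their values do not separate a cell type. Among the endothelial markers Cdh5 had 47.7 and 78.0, with an interval above 0, and Erg 150 and 116, with an interval below 0. Among the macrophage and leukocyte markers Spi1 had 53.6 and 73.6, with an interval above 0. The other intervals in these 2 lists included 0. Whether other cell types had a part in the values below was not tested, and in such bulk libraries fewer cells with an open site cannot be told apart from a less open site in each cell.

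A cytosolic ribosome is built from a small subunit, which reads the mRNA, and a large subunit, which joins the amino acids, each made of ribosomal RNA and many small proteins. Most of the proteins are needed in equal numbers, and their genes are scattered over the genome and transcribed strongly in nearly every cell from compact promoters without a typical TATA box. Transcription of most of them starts at a C within a run of pyrimidines, which gives their mRNAs the 5′ terminal oligopyrimidine (TOP) tract through which mTOR signalling controls their translation. Fibroblasts that become myofibroblasts make large amounts of matrix and contractile protein, which has drawn interest to their translation machinery.

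Promoter sequences are shown first because the peaks of these genes lay over them. RefSeq held an entry for 51 of the 69 members, matched by symbol, with 61 windows of 300 bases from 250 bases before to 50 after the annotated start (8 genes had more than 1 window). These windows come from the assembly GRCm38.p6, while gene coordinates in the peak table are those of GRCm39, so sequences and peaks were joined by gene symbol and not by position. The 4 members with the lowest and the 4 with the highest log2 ratio of siPiezo2 to SCR among those with an entry are printed, from 100 bases before the start to 30 after it, using the first window of each gene. Capitals mark CTTTC, a piece of sequence typical of a TOP start, read on the gene's own strand, and CCGGAAG, the core bound by ETS factors such as GABPA, on either strand. The first 4 lines are the lowest, in ascending order, and the last 4 the highest.
Rpl11, chr4:136053364-136053493, minus strand: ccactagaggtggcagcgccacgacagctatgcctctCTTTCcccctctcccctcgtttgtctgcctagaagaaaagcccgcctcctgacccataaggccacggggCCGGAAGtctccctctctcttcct
Rps23, chr13:90923022-90923151, plus strand: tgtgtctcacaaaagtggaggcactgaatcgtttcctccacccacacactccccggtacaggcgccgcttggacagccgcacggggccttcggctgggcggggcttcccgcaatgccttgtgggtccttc
Rpl5, chr5:107900428-107900557, plus strand: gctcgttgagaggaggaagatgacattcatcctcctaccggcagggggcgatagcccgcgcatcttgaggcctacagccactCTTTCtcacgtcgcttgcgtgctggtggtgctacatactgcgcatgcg
Rps4x, chrX:102189362-102189491, minus strand: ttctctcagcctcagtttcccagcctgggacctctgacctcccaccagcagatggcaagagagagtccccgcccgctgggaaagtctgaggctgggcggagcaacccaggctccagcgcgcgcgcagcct
Rps26, chr10:128626477-128626606, minus strand: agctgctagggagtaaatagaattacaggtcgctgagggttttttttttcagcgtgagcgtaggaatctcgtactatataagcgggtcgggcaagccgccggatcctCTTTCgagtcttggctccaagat
Rpl27, chr11:101442145-101442274, plus strand: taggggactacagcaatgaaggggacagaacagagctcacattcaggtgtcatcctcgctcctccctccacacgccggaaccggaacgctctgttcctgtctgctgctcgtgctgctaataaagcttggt
Rpl18, chr7:45717971-45718100, plus strand: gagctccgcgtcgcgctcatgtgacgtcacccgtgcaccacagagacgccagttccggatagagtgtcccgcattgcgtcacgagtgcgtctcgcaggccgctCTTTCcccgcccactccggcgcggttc
Rps24, chr14:24490578-24490707, plus strand: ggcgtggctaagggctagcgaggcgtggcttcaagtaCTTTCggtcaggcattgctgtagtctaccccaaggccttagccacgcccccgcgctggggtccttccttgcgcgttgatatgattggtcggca
CTTTC stood in 5 of the 8 printed windows, in 2 of the 4 lowest and 3 of the 4 highest, and CCGGAAG stood only in that of Rpl11. In the windows of Rpl11, Rpl5 and Rps24 the CTTTC lies upstream of the annotated start and so outside the annotated transcript. Over the full 300 bases, CTTTC stood in 67.2% of member windows, against 34.8% of all 32851 RefSeq windows and 32.1% of the windows of genes with a peak within 1 kb of a start. Close to the start, from 40 bases before to 50 after it, the shares were 50.8% of member windows, 11.5% of all windows and 9.33% of those of genes with such a peak. A run of at least 8 pyrimidines touching the 20 bases on either side of the start stood in 45.9% of member windows, against 21.2% of all and 20.1% of those with a peak. These are matches of letters and describe the windows, not binding.

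The other motifs searched were those of factors known from ribosomal protein promoters. CCGGAAG was found on either strand in 32.8% of member windows, 8.86% of all windows and 16.0% of the windows of genes with a peak near a start. AAGATGGC, the core of the YY1 motif, was found on either strand in 13.1%, 2.75% and 4.08%. TATAAA, on the gene's strand, stood in 6.56% of member windows, 8.32% of all and 4.56% of those with a peak. CACGTG, the E-box bound by MYC, which reads the same on both strands, stood in 9.84%, 7.15% and 9.87%. None of these motifs contains another.

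Every member had a peak near a start. Of the 84 member peaks, 71 had their summit within 1 kb of a transcription start by the distance the table gives, and these lay in all 69 genes. The summit of 51 of the 71 lay within 100 bp of the start of the annotated transcript, which is 71.8%, against 53.1% of all peaks this near to a start, and 65 lay within 250 bp. The median summit was 23 bp upstream (-23), 51 summits lay upstream and 19 downstream, and 66 of the 71 peaks overlapped the start itself. The median width of these peaks was 384 bp, against 356 bp for all 14801 peaks within 1 kb of a start. By the table's own classes, 52 of the 84 member peaks were promoter peaks within 1 kb, 15 lay in a 5′ UTR, 12 in an intron, 2 in a 3′ UTR, 2 in a promoter beyond 1 kb and 1 downstream of its gene.

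**Figure D1:**
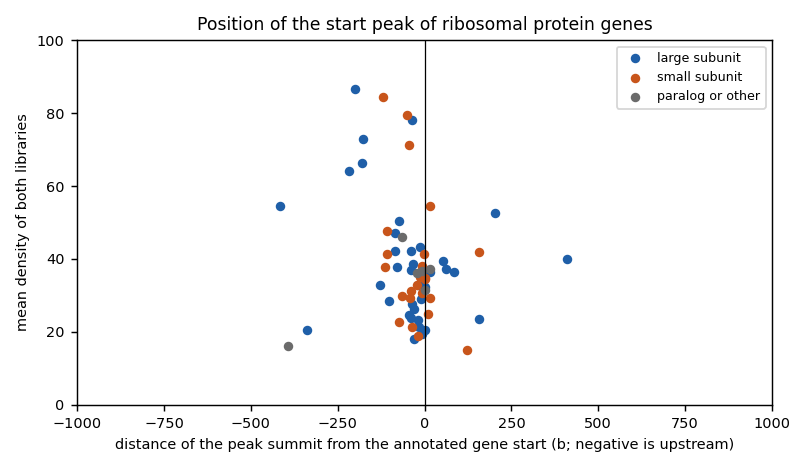
Distance of the summit of each ribosomal protein gene's start peak from the annotated gene start in bases (x axis, negative is upstream) against the mean normalized read density of both libraries (y axis), with 1 point per gene coloured by subunit. The points crowd within 100 b of the start, and a few peaks, such as that of Rpl10 at -416 b and that of Rpl35 at 410 b, lie farther away.

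The plot of summit position shows how narrow this placement was at peaks of every height. The normalized read density, in reads per 1 kb of a window of 2000 bp around the summit, had a median of 35.4 in SCR and 34.3 in siPiezo2 over the 71 start peaks, and of 33.9 and 32.1 over all 14801 peaks near a start. The mean density of both libraries had a median of 36.0 in the member start peaks and 33.0 in the 14730 others, and 41 of the 71 lay above that value. Ranked among those others, the member start peaks ranged from the 2.77th to the 96.7th percentile, with a median of 56.9. Ribosomal protein genes thus had start peaks of about the usual height, with a wide spread within the family.

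Most start peaks of these genes were called, that is, found by the authors' peak caller, in both libraries. Of the 71, 53 (74.6%) were called in both and 18 (25.4%) in SCR only, with 0 in siPiezo2 only. Of all peaks near a start, 55.9% were called in both, 42.4% in SCR only and 1.60% in siPiezo2 only. The siPiezo2 library held fewer reads, with a median of 54 per member start peak against 87 in SCR, and the part of depth in these shares was not tested.

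**Figure D2:**
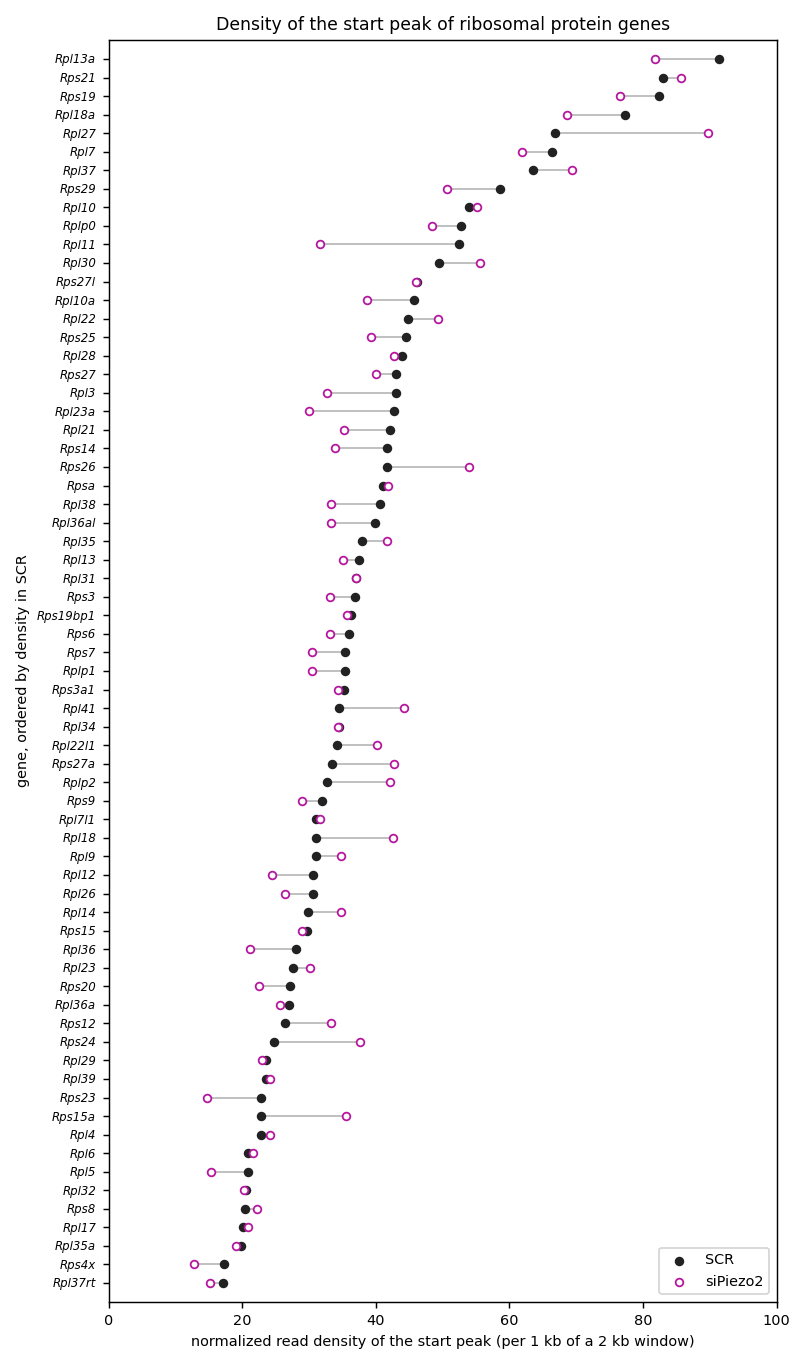
Normalized read density of the start peak of 67 of the ribosomal protein genes (x axis, per 1 kb of a 2 kb window) in SCR (filled) and siPiezo2 (open), with genes ordered by their SCR value and a line joining the values of a gene. The order is largely shared by the libraries, from Rpl13a with 91.3 and 81.8 down to Rpl37rt with 17.1 and 15.2.

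The libraries ranked the 69 start peaks in much the same order, with a Spearman correlation of 0.83 across genes, which share both libraries and are not replicates. The plot of densities by gene shows this as pairs of points that descend together. The highest start peak was that of Rpl13a, a large subunit protein also known as a translational silencer in inflammation, with 91.3 in SCR and 81.8 in siPiezo2 (246 and 120 reads). Rps21, of the small subunit, followed with 83.0 and 85.7. Rps19, the protein most often mutated in Diamond-Blackfan anaemia, had 82.3 and 76.5 (220 and 113 reads). At the other end were Rps4x, the X-linked small subunit gene, with 17.2 and 12.8, the retrotransposed copy Rpl37rt with 17.1 and 15.2, and Rpl35a with 19.8 and 19.0. The strong peaks were several times as high as the weak ones in both libraries.

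The question put to the family was whether its accessibility differed between siPiezo2 and SCR in TGF-β-treated fibroblasts. Densities were summed over the peaks of a gene, and log2((siPiezo2 + 1)/(SCR + 1)) was taken. The median of the 69 log2 ratios was -0.035, with quartiles of -0.20 and 0.11, and 41 of the 69 lay below 0 (59.4%). For all 16934 genes the median was -0.093, with quartiles of -0.29 and 0.10, and 62.6% lay below 0. Most members had a single peak, 62 of 69, against 8320 of all genes, and genes with 1 peak in the whole table had a median of -0.061. Summed over the family, SCR reached a density of 3154 against 3070 in siPiezo2 (log2 ratio -0.039), with an interval from -0.091 to 0.013, which includes 0. In this sum 5 member windows overlapped that of another peak of the same gene, so shared reads were counted more than once. These medians take their sign from the scaling of the libraries. Median-of-ratios scaling moved the median of all genes from -0.093 to 0.043 and that of the family to 0.0998. Such a scaling shifts all genes alike and leaves the distance between the medians, 0.058 as deposited, nearly as it was. That distance was -0.031 over promoter peaks, -0.0064 over peaks within 1 kb of a start, and -0.0057 from recovered reads unscaled or 0.0052 at the same total.

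The median log2 ratio of the 71 member start peaks was -0.043, and that of all 14801 peaks within 1 kb of a start was -0.042. Of the 71, 3 were lower past 1.5-fold, against 7.7% of all such peaks, and 2 were higher, against 2.41%. Among peaks of the promoter class the median was -0.050 for the 52 of the family and -0.030 for all 9251. Over peaks called in both libraries it was -0.027 for the 56 of the family and 0.0025 for all 21398. Over peaks called in SCR only it was -0.197 for 24 and -0.229 for all 40553, and in siPiezo2 only 0.18 for 4 and 0.58 for all 1365. The order of the family and all peaks thus differed between these classes. SCR-only peaks were 28.6% of member peaks and 64.0% of all peaks. The 13 member peaks beyond 1 kb had a median of -0.029, against -0.17 for all 48515 peaks that far from a start, but 7 of the 13 belong to Rps14 and 3 to Rpl3, so this median describes few loci and not the family. In reads before any scaling, member start peaks lay at a median log2 ratio of -0.71 and all start peaks at -0.69.

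**Figure D3:**
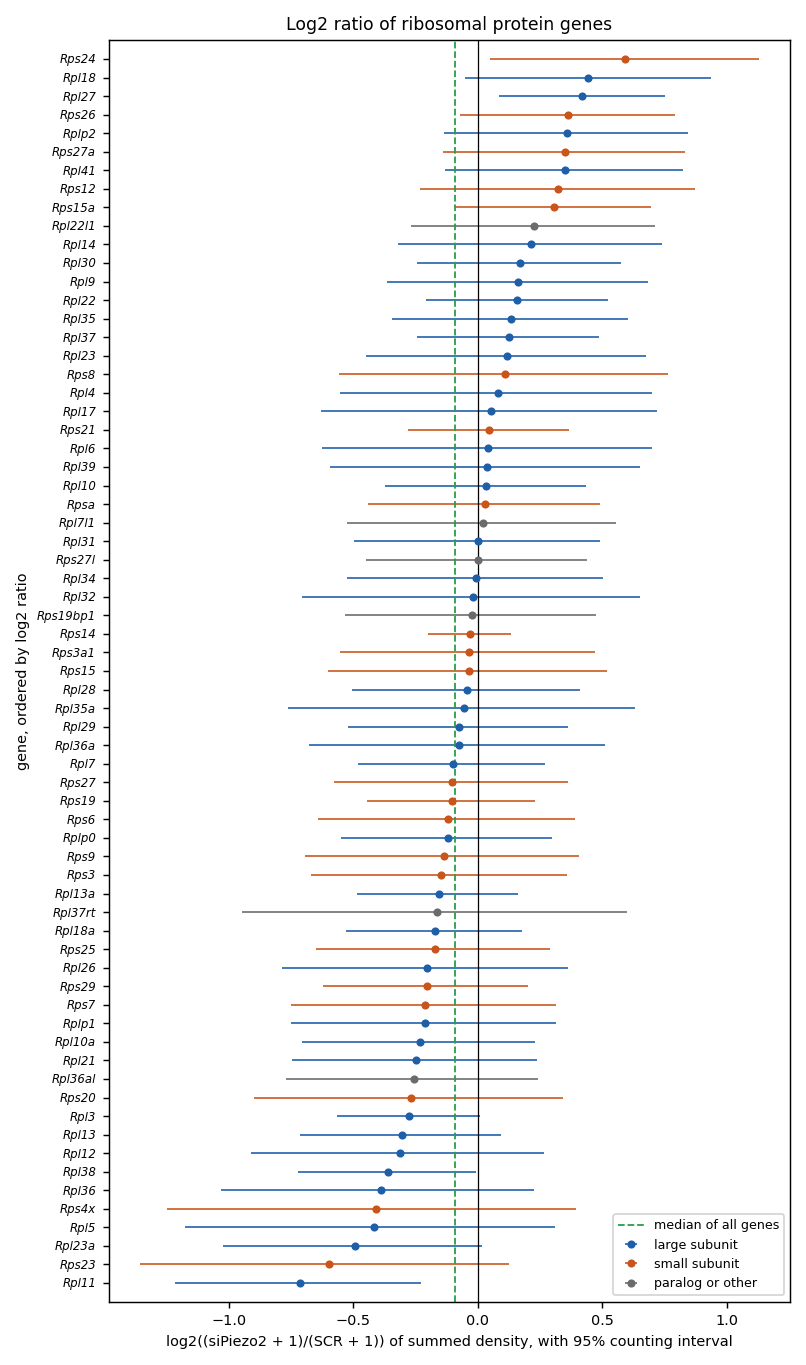
Log2 ratio of siPiezo2 to SCR for 67 of the ribosomal protein genes (x axis, from summed densities plus 1), ordered by value and coloured by subunit, with bars for the 95% exact binomial counting interval. The bars of 63 of them cross 0, and the genes form an unbroken series around the dashed line at the median of all genes, -0.093.

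Few single genes stood past 1.5-fold, counted on the ratio of summed densities without the added 1. In siPiezo2, 3 members were lower by more than that, Rpl11 and Rps23 among them, which is 4.35% of the family, against 7.27% of all genes with a peak (1231 of 16934). Rps24 alone was higher by more than 1.5-fold, which is 1.45% of the family against 1.72% of all genes (292 of 16934). These shares hold for the deposited scaling. With median-of-ratios scaling 3.95% of all genes were lower and 4.26% higher past 1.5-fold, 2 members were lower and 2 higher, and Rps23, at a log2 ratio of -0.47, was no longer past it. The counting interval lay wholly below 0 for 3 members, Rpl11 and Rpl38 among them, against 15.2% of all genes, and wholly above 0 for Rpl27 and Rps24, against 4.37%. These counts too hold for the deposited scaling only, since another scaling shifts each interval together with its log2 ratio. Of the 8320 genes with 1 peak, as most members have, 587 had an interval below 0 and 321 one above it. The other 64 intervals included 0, and 62 of the 69 included the median of all genes. A median interval reached 0.49 to either side of its value, so a log2 difference smaller than that could not be told from 0 by the counts of a typical member. Within 1.2-fold of equality either way lay 48 members (69.6%), against 59.2% of all genes and 54.0% of genes with 1 peak. This range was chosen after seeing the data and holds for the deposited scaling. Genes with 1 peak had a median of 67 reads in SCR, against 86.5 for members with 1 peak, so their counting error was larger.

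The plot of ratios by gene shows the spread as an unbroken series without a separate group. The log2 ratios of the 71 start peaks had an SD of 0.27 and a variance 1.15 times that of counting error alone. The 14801 peaks near a start had an SD of 0.35 and a variance 1.84 times that of counting error. The spread among ribosomal protein genes was thus close to that of counting error. Across the 69 genes the log2 ratio had a Spearman correlation of 0.13 with the mean density. The 12 start peaks with a mean density over 50, which are the best measured, had a median log2 ratio of -0.033 and ranged from -0.20 to 0.42.

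**Figure D4:**
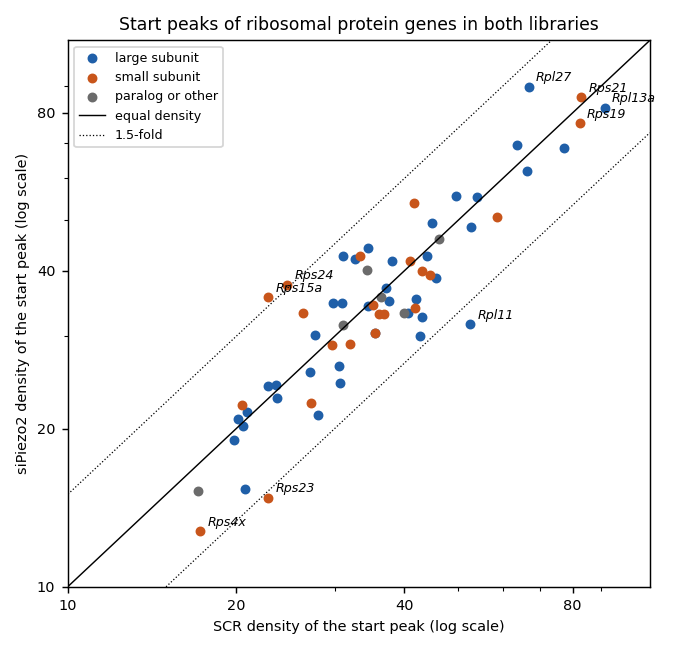
Normalized read density of the start peak of 67 of the ribosomal protein genes in SCR (x axis) and siPiezo2 (y axis), both on log scales, coloured by subunit, with a solid line of equal density and dotted lines at 1.5-fold. Rpl11 and Rps23 lie at or beyond the lower dotted line and Rps24 and Rps15a at or beyond the upper one.

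Genes of the small subunit, which decodes the mRNA, had a median log2 ratio of -0.069 over 24 genes, and 15 lay below 0. With promoter peaks only this median was -0.035 against -0.075 for the large subunit genes, the opposite order to the one over all peaks, and it was -0.104 with the strongest peak of each gene and -0.103 without Rps14. Rps23, which lies at the decoding centre, had 22.8 in SCR and 14.8 in siPiezo2 (53 and 24 reads), a log2 ratio of -0.60 whose interval from -1.36 to 0.12 includes 0. Its peak (GRCm39, chromosome 13, 91070807 to 91071308) had its summit at -20 bp from the start and was called in SCR only.

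On the other side stood Rps24, one of the genes mutated in Diamond-Blackfan anaemia, with 24.7 in SCR and 37.7 in siPiezo2 from 60 reads in each library. Its log2 ratio was 0.59 with an interval from 0.049 to 1.13, at a peak on chromosome 14 from 24540539 to 24540881 that was called in both libraries. The start of Polr3a, a subunit of RNA polymerase III on the opposite strand, lies within 1 kb of that of Rps24 in GENCODE, so the window can hold reads of both promoters. The same limit applies to other genes. Of the 65 canonical ribosomal protein genes with a peak, 11, Rps24 among them, have an opposite-strand protein-coding start within 1 kb. The summit of the Rps25 peak lay nearer to the start of Trappc4 than to that of Rps25. Rps26 had 41.7 and 53.9, a log2 ratio of 0.36 with an interval from -0.070 to 0.79. Rps15a had 22.8 and 35.6 at its 5′ UTR, a log2 ratio of 0.62 and the highest of any member peak, while its second peak, in the 3′ UTR, had 28.2 and 27.6. Rpsa, the laminin receptor precursor that is also a small subunit protein, had 41.0 and 41.9, and Rps19 had a log2 ratio of -0.10 with an interval from -0.45 to 0.23. The small subunit genes with the highest summed densities included Rps14, Rps21 and Rps19, with log2 ratios of -0.032, 0.045 and -0.10.

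Genes of the large subunit, which holds the peptidyl transferase centre, had a median log2 ratio of -0.043 over 39 genes, with 22 below 0. Rpl11, which with Rpl5 binds 5S ribosomal RNA and restrains MDM2 when ribosome assembly fails, had 52.5 in SCR and 31.7 in siPiezo2, from 132 and 49 reads. Its log2 ratio was -0.71 with an interval from -1.22 to -0.23, at a peak on chromosome 4 from 135780579 to 135780997 called in both libraries. Its partner Rpl5 had 20.8 and 15.3 (48 and 25 reads), a log2 ratio of -0.42 whose interval from -1.18 to 0.31 includes 0. Rpl23a, at the exit of the peptide tunnel, had 42.7 and 30.1, a log2 ratio of -0.49 with an interval from -1.02 to 0.015. Rpl38, known for its part in the translation of Hox mRNAs, had 81.4 and 63.3 summed over 2 peaks, both called in SCR only. Its interval ended at -0.0056, but the windows of its peaks overlap and some reads were counted in both.

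The large subunit genes with the highest log2 ratios were Rpl18 and Rpl27. Rpl18 had 31.1 in SCR against 42.6 in siPiezo2, a log2 ratio of 0.44 with an interval from -0.051 to 0.93. Rpl27 had 66.8 and 89.7, from 178 and 133 reads, a log2 ratio of 0.42 with an interval from 0.084 to 0.75, at a peak on chromosome 11 from 101332830 to 101333349. Rpl27 was the only one of the 12 strongest start peaks whose interval lay off 0. The genes of the stalk, which recruits the elongation factors, had no common direction. Rplp0, its base, had 52.7 and 48.4, Rplp1 had 35.4 and 30.5, and Rplp2 had 32.6 and 42.1, with log2 ratios of -0.12, -0.21 and 0.36 whose intervals all included 0. Rps7 happened to have the same read numbers as Rplp1, 87 and 48, and so the same densities.

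Paralogs were set beside the genes they resemble. Rpl22l1, which can take the place of Rpl22 in the ribosome, had 34.2 in SCR and 40.2 in siPiezo2, and Rpl22 had 62.2 and 69.5 summed over 2 peaks. Rps27l, a p53 target, had 46.1 and 46.1, beside 43.0 and 39.95 for Rps27. Rpl7l1 had 31.1 and 31.6, beside 66.4 and 61.9 for Rpl7. Rpl36al had 39.9 and 33.2, beside 27.1 and 25.6 for Rpl36a, and Rpl37rt had 17.1 and 15.2, beside 63.6 and 69.4 for Rpl37. The 6 members outside the canonical set had a median log2 ratio of -0.012 and ranged from -0.26 to 0.23, and all 6 intervals included 0.

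Of all members, 7 had more than 1 peak. Rps14, a small subunit protein lost in the 5q deletion syndrome, had 8 peaks, which summed to 309 in SCR against 302 in siPiezo2, the highest sum of the family. Its start peak had 41.7 and 34.0, and the 7 other peaks together had 268 and 268, or 86.5% of the SCR sum. The windows of some of its intron peaks overlap, so their shared reads enter these sums more than once. The 6 of them in introns of the long annotated transcript had 214 and 219, and 3 of the 6 had their nearest start at another gene, Ndst1. Rpl3, which lies at the peptidyl transferase centre, had 4 peaks with 120 and 98.6 in all, among them a start peak of 43.0 and 32.7 and a peak downstream of the gene with 43.1 and 29.4. The latter had a log2 ratio of -0.54 with an interval from -1.07 to -0.026, and the 2 intron peaks of Rpl3, called in siPiezo2 only, had 18.9 and 20.2 and 14.6 and 16.3. The second of these intron peaks had its nearest start at another gene, Syngr1. Rpl13 had 37.5 and 35.1 at its start and 25.2 and 15.5 at an upstream peak, whose summit stood at -1868 bp from the start, with a log2 ratio of -0.67. Rpl22, Rpl29, Rpl38 and Rps15a had 2 peaks each. Leaving out Rps14 left the median of the family at -0.039.

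Members lay on 19 chromosomes, with 10 on chromosome 7 and 7 on chromosome 9, and 2 pairs of members within 100 kb of each other are given here. A further pair is not reported here, so these pairs do not show that neighbours are alike in general. Rpl41 and Rps26, 77602 bp apart on chromosome 10, had log2 ratios of 0.35 and 0.36. Rps29 and Rpl36al, 24922 bp apart on chromosome 12, had -0.20 and -0.26. Each of these 4 intervals included 0, and whether neighbours resemble each other more than other members do was not tested.

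Members were also split by the letters of their promoter windows. The 35 members with CTTTC in a RefSeq window had a median log2 ratio of -0.056 and the 16 without it 0.0074. The 19 with CCGGAAG had a median of 0.0010 and the 32 without it -0.050. The printed windows were picked by log2 ratio, and CTTTC stands in those of Rpl11 and Rpl5 at the low end and of Rps26, Rpl18 and Rps24 at the high end.

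Genes that serve the same process were set beside the family, and the counts past 1.5-fold below stand against 7.27% lower and 1.72% higher of all genes. The median log2 ratio of 18 other genes with TOP mRNAs, all of which carried a peak, was -0.0026, with 0 genes past 1.5-fold in either direction, near those shares for so short a list, from Eef2, the translocase of elongation, with 31.5 in SCR and 23.9 in siPiezo2, to Tpt1 with 68.0 and 85.6. Of those 18, Fau encodes a ribosomal protein fused to a ubiquitin-like protein under a symbol outside the rule, and Rack1 is a small subunit protein. Fau had 27.1 and 33.9 and Rack1 had 36.8 and 33.1. Genes of ribosome assembly had a median of -0.12 over 42 genes, with 1 lower past 1.5-fold, Imp3, at 19.4 and 11.6, and Gtpbp4 at the other end with 30.7 and 42.6. RNA polymerase I and its factors, which transcribe ribosomal RNA, had a median of -0.078 over 12 genes, from Polr1f with 25.1 and 16.7 to Taf1c with 23.2 and 36.3, with 1 lower (8.33%) and 2 higher (16.7%) past 1.5-fold.

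Known regulators of ribosomal protein synthesis had a median of 0.022 over 17 genes. Tsc2, which restrains mTOR, was the lowest with 55.2 in SCR and 36.1 in siPiezo2 (log2 ratio -0.60, interval from -1.07 to -0.14) and the only one past 1.5-fold, and Mycn the highest with 36.5 and 45.9. Noncoding hosts of small nucleolar RNAs, which are also TOP genes, had the lowest median of these lists, -0.22 over 8 genes. Among them Gas5 had 61.6 and 35.9 (157 and 55 reads), a log2 ratio of -0.76 with an interval from -1.23 to -0.31, while Snhg16 had 58.8 and 70.2.

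**Figure D5:**
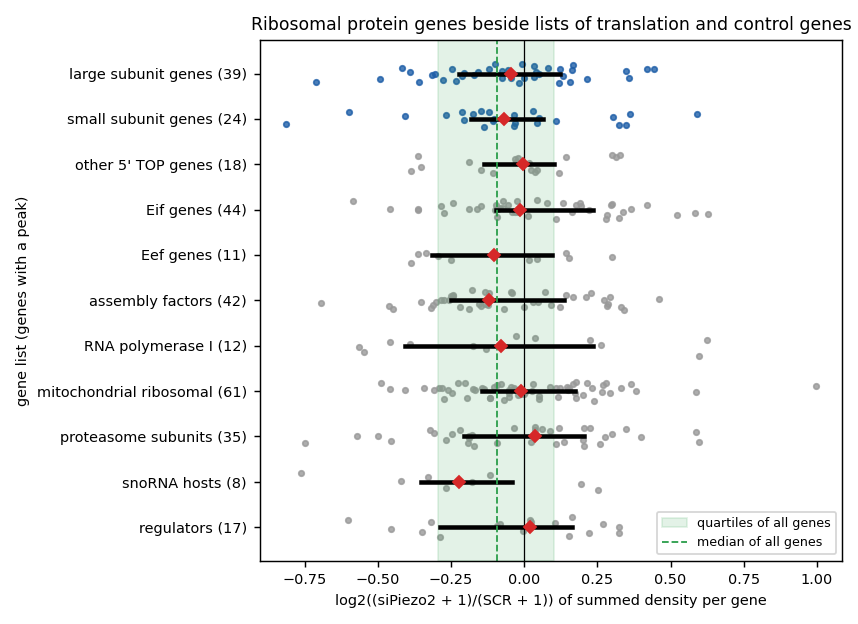
Log2 ratio of siPiezo2 to SCR of each gene (points) in lists of translation genes and in comparison lists (rows, with the number of genes with a peak), with a diamond at the median and a bar over the quartiles. The shaded band and dashed line are the quartiles and the median of all genes. The medians of the large and small subunit genes, -0.043 and -0.069, lie inside the band, as do those of every other list drawn.

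Mitochondrial ribosomal protein genes, whose products translate the mitochondrial genome, had a median of -0.012 over 61 genes. Their lowest was Mrps22 with 24.7 in SCR and 17.3 in siPiezo2 and their highest Mrps31 with 18.4 and 37.8, a log2 ratio of 0.997 with an interval from 0.41 to 1.59. The 44 genes with Eif symbols, which besides initiation factors include the Eif2ak kinases, the Eif4ebp inhibitors and Eif4enif1, had a median of -0.014, from Eif4enif1 with 23.6 and 15.4 to Eif1, which guards start codon choice, with 100 and 156. The 11 genes with Eef symbols had a median of -0.10, from Eef2 to Eef2kmt with 51.7 and 63.9. They hold, beside elongation factors, the kinase Eef2k and 4 methyltransferases that modify the factors, Eef1akmt1, Eef1akmt2, Eef1akmt4 and Eef2kmt. Proteasome subunit genes, another large housekeeping family, had a median of 0.036 over 35, from Psma8 with 20.2 and 11.6 to Psmc2 with 20.6 and 31.6. The plot of lists shows the ribosomal protein genes within the range of these families, with no list standing outside the quartiles of all genes.

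Not every ribosomal protein gene could be measured. Of 79 canonical genes, Fau included, 65 had a peak in the table used here, and the 14 not analysed for want of a row under their symbol included Rpl7a, Rpl8, Rpl15, Rpl19, Rpl24, Rpl27a, Rpl37a, Rps2, Rps10, Rps13, Rps16, Rps18 and Rps28. The table gives each peak to 1 gene. For 5 of the 14 another protein-coding gene starts on the opposite strand within 1 kb (GENCODE M21), and for 4 of these that neighbour carried a peak within 1 kb of its start. Nkiras1, the neighbour of Rpl15, had 63.0 in SCR and 65.2 in siPiezo2, Med22, beside Rpl7a, had 37.6 and 42.3, Vps52, beside Rps18, had 39.6 and 39.8, and Ndufa7, beside Rps28, had 33.6 and 27.1. These peaks may cover both starts and are not counted among the members.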

How the data were processed

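The authors deposited 1 table of ATAC-seq peaks for both libraries. Its signal columns are read densities per 1 kb of a 2000 bp window, which the authors normalized with a straight line fitted to log2 ratios against mean log2 densities. The authors' log2 ratio and p-value columns hold their own comparison and were not used. Per the labels, alignment used BWA 0.7.12 and the build mm10, but gene coordinates in the table are those of GRCm39, and the methods name Picard and MACS2. The labels and the paper name an siRNA against Piezo2, while the design text of the series names a Tet3 knockout; the labels were followed. The methods also describe another kit and minced tissue.

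Densities were summed per gene and log2((siPiezo2 + 1)/(SCR + 1)) was computed. Reads were recovered from the 2 density columns as whole numbers in both libraries for 99.998% of peaks at a tolerance of 0.02, with a slope of 0.174 and an intercept of -0.248, and gave 95% Clopper-Pearson intervals. These cover counting error only. With 1 library per condition no test was made. A ratio past 1.5-fold was counted, and this and the 1.2-fold range used densities without the added 1. The 1.2-fold range was chosen after seeing the data. Windows around nearby peaks can overlap.

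The rule for named members took the 5 lowest and 5 highest ratios, the 5 highest and 5 lowest mean densities, the 5 with most peaks, the stalk genes, Rpsa, Rps19, Rpl5, Rpl11, paralogs and canonical genes without a peak, and from each list its lowest and highest gene. Other members named were chosen after their values were seen, and a few genes the rule takes are not reported here. The members and lists were chosen with earlier results of these data known. Alternatives covered the pseudocount (0.1), scaling (median-of-ratios, same total, trimmed mean), weak peaks, promoter or strongest peak only, canonical genes only and a 2-fold threshold. The recovered reads, peaks by distance, separate windows and the omission of Rps14 were added after seeing the data. Promoters came from RefSeq (GRCm38.p6) and neighbouring starts from GENCODE M21. The procedures were tested on simulated data. Scripts ran in Python 3.11.15 with scipy 1.17.1, pandas 2.3.3, numpy 2.4.6 and matplotlib 3.10.9.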

Additional observations from a re-analysis of the deposited data

How the results depend on the processing

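The sign of the medians depended on the scaling of the libraries. The median log2 ratio of the family was -0.035 as deposited, 0.0998 with median-of-ratios scaling, 0.103 with trimmed mean scaling, 0.050 at the same total density, 0.035 from recovered reads at the same total and -0.71 from reads without scaling. In the same order, large subunit genes lay at -0.043, 0.0931, 0.0962, 0.0428, 0.0777 and -0.65, and promoter peaks at -0.050, 0.0842, 0.0872, 0.0350, 0.0209 and -0.71. Small subunit genes lay at -0.069 as deposited, 0.0667, 0.0698 and 0.0166 under the first 3 scalings, -0.76 from unscaled reads and, with the sign kept, -0.031 from reads at the same total. The distance of the family's median from that of all genes was 0.058 as deposited, 0.0198 over the strongest peak of each gene, -0.0313 over promoter peaks, -0.0064 over peaks within 1 kb by distance, -0.0057 from unscaled reads and 0.0052 from reads at the same total. The 3 genes lower past 1.5-fold became 2 with median-of-ratios, same total density and trimmed mean scaling and from reads at the same total, 4 with separate windows, 0 at 2-fold and 46 from unscaled reads, where 66.6% of all genes were lower. Rps23 lost its place among them, with log2 ratios of -0.47, -0.51, -0.46 and -0.38 under those 4 scalings. The 1 higher gene became 2 with median-of-ratios or trimmed mean scaling, with the strongest peak of each gene and with peaks within 1 kb by distance, and 0 at 2-fold and from unscaled reads. Beyond the changes of scale themselves, the cause of these shifts was not tested. For the 10 single genes with the lowest and highest log2 ratios, 68 of 118 values under the other alternatives were identical to the reported ones, and the other 50 kept their sign and lay within the counting intervals. From unscaled reads the log2 ratio of Rpl27 was -0.415, Rps26 lay at -0.35, Rpl18 at -0.20, Rplp2 at -0.29 and Rps24 at 0, and Rpl11 at -1.39 and Rpl23a at -1.14, all 7 outside their counting intervals.

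Depth limits single genes, since a start peak rested on a median of 87 reads in SCR and 54 in siPiezo2. No paired analysis was possible because each condition had 1 library.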
